A study of Mus musculus with 6 samples.

Results

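In microglia cultured with Cd177 KO neutrophils, 55 protein-coding genes stood at 2 times or more of their level in microglia cultured with Cd177 WT neutrophils. They were selected on measured values. A gene was taken when its mean over the 3 KO libraries was at least 5 FPKM (fragments per kilobase of transcript, scaled to the mapped fragments of the library), when that mean was at least 2 times the WT mean, and when its lowest KO value lay above its highest WT value. The deposited table listed 55335 gene identifiers, of which 21899 were protein-coding and 6668 of those had a KO mean of at least 5 FPKM. The rule was met by 60 of the 6668 (0.900%). S100a4, Atp6v0d2, Serpinb1a, Gpr183 and Trem2 were among the 60 and were left out by name, and no mitochondrially encoded or Nduf gene met the rule, which left 55. Since the difference between the arms chose these genes, it is described here and not tested.

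The libraries were made from primary microglia of newborn C57BL/6 brains, shaken off mixed glial cultures, which carried the WT genotype in both arms. Each culture received neutrophils isolated with magnetic beads from injured spinal cord of adult mice at 3 days post injury (dpi), either Cd177 WT or Cd177 KO, for 24 h, and the Ly6G-negative microglia were then sorted for RNA-seq. There were 3 libraries per arm and 6 in all, and nothing in the labels tells if the replicates were cultured separately. Only the neutrophils differed in genotype, so the comparison concerns the response of WT microglia, in culture, to their neutrophil partners.

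Microglia are the resident macrophages of the central nervous system, and neutrophils are the first blood leukocytes to reach an injured spinal cord. Macrophages read their surroundings through G protein-coupled receptors and immunoreceptors, and they adjust how they make, take up and burn lipid when their activation changes. CD177 is a surface glycoprotein of neutrophils that takes part in their adhesion and migration.

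By depth the libraries were alike, at about 15.6 to 19.2 in units of 1000000 fragments, as estimated from the steps between low FPKM values. Pearson's r of log2(FPKM + 1) across genes was 0.988 to 0.989 within an arm and 0.956 to 0.959 between arms, so no whole library stood apart within its arm (genes are not independent replicates). Cd177 itself was listed at 0.477, 0.113 and 0.151 FPKM in the WT arm and at 0.109, 0.0217 and 0.0845 FPKM in the KO arm, which does not check the genotype of the neutrophils. Of 30 microglia identity markers 16 had a mean of at least 1 FPKM, among them Csf1r and Adgre1, while C1qa, Fcrls, Sall1 and Sparc were listed at 0 and P2ry12, Tmem119 and Aif1 lay under 1 FPKM in every library. The table does not tell if an exact 0 stands for absence or for a level that could not be estimated, so a gene at 0 is given only as listed at 0. In a list of 30 genes that every cell uses, drawn up after the values were seen, none was at 0 in all libraries. The summed level of the microglia identity markers was 1272 to 1316 FPKM in the WT arm and 1509 to 1556 FPKM in the KO arm.

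The summed level of neutrophil markers moved in the opposite direction to the 55 genes. The 25 neutrophil markers summed to 148.8 to 156.8 FPKM in the WT arm and to 8.726 to 10.11 FPKM in the KO arm. Lcn2, Hp and Mmp9 were the only markers with a mean of at least 1 FPKM, 11 of the 25 were listed at 0 in all libraries, and Ly6g, S100a9, Mpo, Elane and Retnlg were among those 11. The summed level therefore rests on the markers with a value. Among Lcn2, Hp and Mmp9, Lcn2 fell most (log2 change -6.54), and Mmp9 is also in a list of osteoclast and cell fusion genes. The genes listed at 0 do not show that neutrophil RNA was absent. The 15 lymphocyte and mast cell markers summed to no more than 0.161 FPKM in any library. Of the 18 astrocyte and oligodendrocyte markers and the 18 markers of fibroblasts, endothelium and neurons, Cnp and Vwf alone reached a mean of 1 FPKM, and the summed levels were 2.993 to 3.57 and 3.342 to 3.807 FPKM with WT against 4.34 to 4.667 and 4.808 to 5.033 FPKM in the KO arm. Whether these shifts had a part in the values of the 55 genes was not tested, and in RNA from bulk cells fewer cells of a type cannot be told apart from less RNA per cell. Nor do bulk values tell if the Lcn2, Hp and Mmp9 transcripts came from neutrophils or from the microglia.

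Across the 55 genes the KO to WT ratio of mean FPKM ran from 2.00 to 4.99 with a median of 2.32, and the median level went from 5.67 FPKM with WT to 14.8 FPKM in the KO arm. Only Arrb1, Cmbl, Cytip, Cd300lb and Rin2 stood at 3 times or more. Together the 55 genes held 0.15% of all FPKM in the WT arm and 0.358% in the KO arm. Their median KO level was close to the 13.6 FPKM of the 6668 genes, while their median WT level lay below the 13.4 FPKM of those genes, as a rule that asks for a doubling entails. A WT mean under 5 FPKM was found in 23 of the 55 and a KO mean above 20 FPKM in 19, with Hspb7 at the top. The mirrored rule, with a WT mean of at least 5 FPKM that is 2 times the KO mean or more and again no overlap, was met by 213 of 6700 genes (3.18%). In that group 93 genes (43.7%) differed by 3-fold or more, against 5 of the 55 (9.09%). The mirrored group had no exclusions by name, whereas the 55 lack 5 genes that met the rule, so the shares are not of like groups. Atp6v0d2, with a log2(FPKM + 1) change of 2.08, was among those left out.

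**Figure D1:**
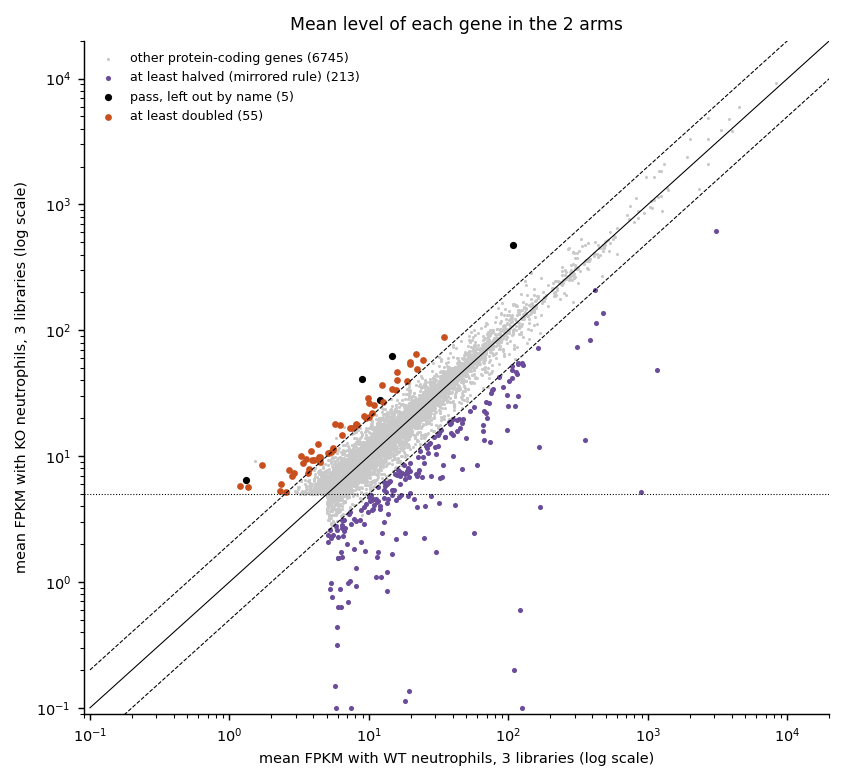
Mean FPKM of protein-coding genes with at least 5 FPKM in either arm, WT neutrophils on the x axis and KO neutrophils on the y axis, both on log scales and each the mean of 3 libraries. Dashed lines mark a ratio of 2 either way, the dotted line a KO mean of 5 FPKM, and means under 0.1 are drawn at 0.1. The 55 genes (orange) lie close above the upper dashed line, while the 213 genes of the mirrored rule (purple) spread further from the lower one.

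Of the 55, 6 genes belong to signalling through G protein-coupled receptors, in which an occupied receptor activates a G protein, RGS proteins switch the G protein off, and arrestins uncouple the receptor. Arrb1, which encodes beta-arrestin 1, had the highest ratio of all. Its FPKM was 1.26, 2.74 and 1.10 with WT and 8.76, 7.47 and 9.23 with KO neutrophils, a ratio of 4.99. WT replicate 2 was the high one of its arm, and without it the ratio was 7.19. The other arrestin of these cells, Arrb2, was more abundant and lay the other way, at 47.7 ± 4.64 FPKM (SD, n = 3) with WT and 36.4 ± 2.95 FPKM (SD, n = 3) with KO neutrophils.

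Rgs2, a GTPase-activating protein for G alpha q, was the most abundant of the 6. It was read at 15.3, 15.7 and 15.95 FPKM in the WT arm and at 33.0, 32.7 and 34.3 FPKM in the KO arm, with little spread in either arm. Among the receptors, Cxcr4, the receptor of the chemokine Cxcl12, averaged 9.97 FPKM in the WT arm and 26.4 FPKM in the KO arm. S1pr1, a receptor of sphingosine 1-phosphate that guides leukocytes between tissue and blood, averaged 3.55 and 9.43 FPKM. For Gpr157, a receptor without a settled ligand, the means were 2.82 and 6.97 FPKM, and for Lpar5, a receptor of lysophosphatidic acid, they were 2.56 and 5.16 FPKM. Of the 55 genes, Lpar5 lay nearest to the level threshold.

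Of the 11 receptors of sphingosine 1-phosphate and lysophosphatidic acid, a list drawn up after the values were seen, 4 had a mean of at least 1 FPKM. S1pr2 overlapped between the arms at 3.58 ± 0.294 FPKM (SD, n = 3) with WT and 3.40 ± 0.509 FPKM (SD, n = 3) with KO neutrophils, so the means of S1pr1 and S1pr2 were close in the WT arm and apart in the KO arm. Lpar6 had 1.72 ± 0.160 and 2.40 ± 0.0481 FPKM (SD, n = 3 each), with every KO library above every WT library, as was the case for 31.3% of all 11395 genes that averaged 1 FPKM or more.

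A set of 8 genes encodes immune surface receptors or proteins of adhesion. Cytip, a cytohesin-binding protein that lowers integrin adhesion of leukocytes, had 1.21, 1.33 and 1.51 FPKM in the WT arm and 6.05, 5.31 and 5.65 FPKM in the KO arm, a ratio of 4.19. Cd300lb, an activating receptor of the CD300 family, had 5.06, 5.78 and 6.16 FPKM in the WT arm and 17.98, 17.96 and 18.2 FPKM in the KO arm. Its 3 KO values were among the tightest of the group. Cd300a, an inhibitory receptor of the same family that binds phospholipids of dying cells, had 10.6, 10.7 and 11.5 FPKM in the WT arm and 25.7, 24.9 and 26.6 FPKM in the KO arm.

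Cd300a and Cd300lb are neighbours on chromosome 11 (114890041 to 114904654 on the plus strand and 114922781 to 114934386 on the minus strand, GRCm38), 18.1 kb apart with no protein-coding gene between. The rest of the family did not share their direction. Among the 5 CD300 genes that averaged 1 FPKM or more, Cd300ld (18.3 ± 0.359 FPKM in the WT arm and 13.2 ± 0.566 FPKM with KO, SD, n = 3 each) and Cd300lf (9.93 ± 0.308 and 7.42 ± 0.232 FPKM) had every KO library below every WT library, which held for 24.6% of all genes at that level. Cd300c2 overlapped between the arms. These directions were the same on the TPM scale and after median centring.

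Lsp1, an actin-binding protein of leukocytes, averaged 3.37 FPKM in the WT arm and 8.82 FPKM in the KO arm. The interleukin 6 receptor subunit Il6ra averaged 4.03 and 9.31 FPKM, while Il6st, the signalling subunit it pairs with, had 11.3 ± 0.412 and 12.5 ± 0.457 FPKM (SD, n = 3 each). Itgax, the integrin alpha X chain, averaged 4.29 and 9.47 FPKM. Nrp1, a co-receptor for semaphorins and vascular endothelial growth factor, averaged 4.48 and 9.84 FPKM, whereas its paralog Nrp2 was lower with KO neutrophils (log2 change -0.98, SE 0.0234, limma adjusted p = 1.07e-06). Vsir, an inhibitory checkpoint protein, averaged 3.64 and 7.30 FPKM, and this value rested on 1 library. Its KO values were 4.62, 4.25 and 13.02 FPKM, and without KO replicate 3 the ratio was 1.22.

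Another 4 genes serve the synthesis of cholesterol or its control. Cholesterol is built from acetyl-CoA through mevalonate and isoprenoids. Acat2 catalyses the first condensation, Idi1 isomerises the isoprenoid unit, Nsdhl removes methyl groups from the sterol ring, and Insig1 holds the SCAP and SREBP complex in the endoplasmic reticulum when sterols are plentiful. Insig1 was the most abundant, at 12.4, 12.7 and 12.6 FPKM in the WT arm and 26.9, 26.8 and 27.5 FPKM in the KO arm, and it had the lowest spread of all 55 genes in the WT arm. Idi1 averaged 9.26 FPKM in the WT arm and 20.7 FPKM in the KO arm, Nsdhl 3.74 and 7.97 FPKM, and Acat2 5.34 and 10.8 FPKM. Idi1 is identical over 684 bases to the processed pseudogene Gm13502, which went from 7.20 to 17.0 FPKM, so reads may have been split between them. Acat2 shares 97.7% and 98.7% of its bases over 1477 and 445 bases with Acat3 and Tcp1.

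The sequences just before the starts of Insig1 and Acat2 are shown because these 2 sterol genes have promoter windows free of the exons of other genes. They are RefSeq sequences of build GRCm38.p6, 5′ to 3′ on the strand of the gene and ending before the first annotated exonic base of the gene itself, so that 49 bases (Insig1) and 22 bases (Acat2) before the RefSeq start are left out. Capitals mark GC boxes, CCAAT boxes and the E-box of the MiT and TFE factors on either strand, in the letters spelled out with the motif counts. Insig1 lies at chr5:28071162-28071362 on the plus strand, and Acat2 at chr17:12960748-12960975 on the minus strand.
Insig1: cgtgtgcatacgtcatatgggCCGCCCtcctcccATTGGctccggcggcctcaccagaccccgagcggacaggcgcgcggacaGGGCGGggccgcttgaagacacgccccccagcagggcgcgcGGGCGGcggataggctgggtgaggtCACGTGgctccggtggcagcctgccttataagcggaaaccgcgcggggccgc
Acat2: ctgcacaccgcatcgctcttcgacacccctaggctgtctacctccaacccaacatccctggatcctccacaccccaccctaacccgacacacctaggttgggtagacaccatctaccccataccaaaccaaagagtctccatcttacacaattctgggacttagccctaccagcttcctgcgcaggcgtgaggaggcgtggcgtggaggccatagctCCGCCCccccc

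The Insig1 window held 3 GC boxes, 1 CCAAT box and the E-box, which begins 101 bases before the RefSeq start, and the Acat2 window held 1 GC box. The sterol regulatory element in the form TCACNCCAC was in neither window, and only 1.0% of all promoter windows held this form. Matches of this kind are a description of the letters and not of bound sites.

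The other enzymes of cholesterol synthesis lay in the same direction by smaller amounts. In a list of 20 enzymes, drawn up after the values were seen and holding Acat2, Idi1 and Nsdhl, 18 had a mean of at least 1 FPKM, and in 17 of them every KO library lay above every WT library (31.3% of all genes did so). None lay wholly below. On the TPM scale the count was 16. The median ratio over the 18 was 1.37, against 1.02 over all genes at that level. Without the 3 selected genes the count was 14 of 15 and the median ratio 1.32. Hmgcs1 had 12.6 ± 1.195 and 21.3 ± 0.782 FPKM (SD, n = 3 each), and Cyp51 had 9.46 ± 0.282 and 16.7 ± 0.793 FPKM (SD, n = 3 each). Msmo1 overlapped between the arms. Of the sensors, Insig2 lay opposite to Insig1, at 9.86 ± 0.428 FPKM in the WT arm and 8.18 ± 0.6998 FPKM in the KO arm (SD, n = 3 each), and Scap was nearly level at 9.17 ± 0.204 and 9.05 ± 0.354 FPKM.

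**Figure D2:**
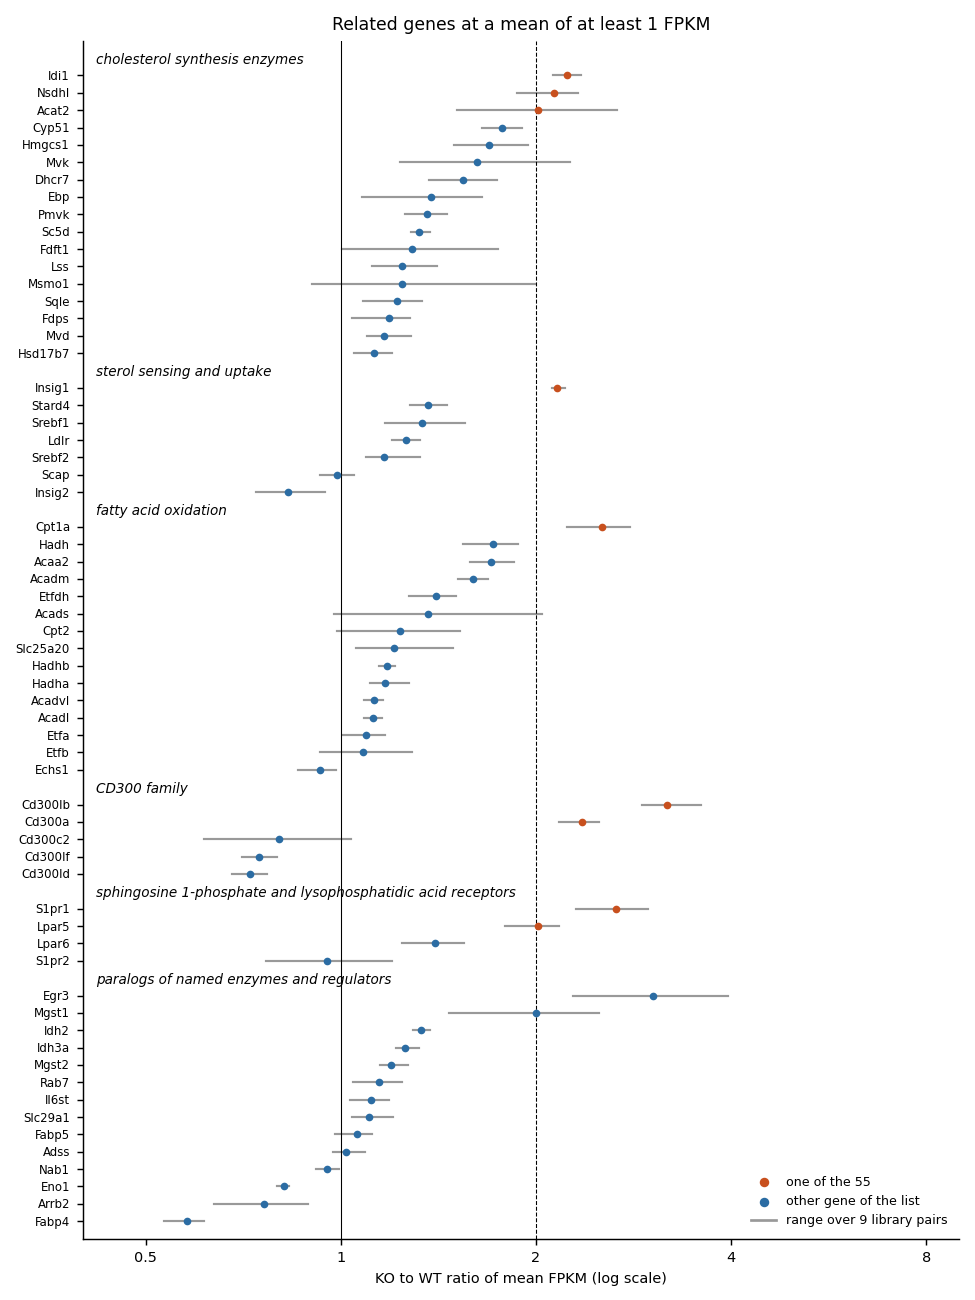
KO to WT ratio of mean FPKM (log scale) for named genes that averaged 1 FPKM or more in 6 lists of relatives of the 55 genes, drawn up after the values were seen. Points are ratios of means, orange for the 55 genes, and lines span the 9 pairs of 1 KO and 1 WT library. The cholesterol enzymes sit to the right of 1, while the CD300 family and the paralogs lie on both sides of it.

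The handling of fatty acids, sugars and mitochondrial energy is the role of 8 genes. Adssl1, the muscle form of adenylosuccinate synthase in the purine nucleotide cycle, had 23.7, 20.7 and 20.7 FPKM in the WT arm and 62.9, 65.3 and 64.6 FPKM in the KO arm. Eno3, the muscle form of the glycolytic enzyme enolase, had 14.9, 15.997 and 17.0 FPKM in the WT arm and 48.1, 47.5 and 44.97 FPKM in the KO arm. In both the KO values lay far outside the WT values. Their widely expressed paralogs did not follow, since Adss had 28.6 ± 0.457 and 29.2 ± 1.31 FPKM (SD, n = 3 each), with overlap, and Eno1 had 524 ± 3.18 and 429 ± 7.51 FPKM (SD, n = 3 each).

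Dbi, the acyl-CoA-binding protein that carries long-chain acyl-CoA, had 12.1, 14.3 and 10.9 FPKM in the WT arm and 35.0, 32.4 and 41.9 FPKM in the KO arm. Fabp3, the heart-type fatty acid-binding protein, averaged 8.24 and 17.5 FPKM. Its relative Fabp4 was lower in every KO library (20.6 ± 0.585 and 11.9 ± 0.561 FPKM, SD, n = 3 each), and Fabp5 overlapped between the arms (57.4 ± 2.33 and 60.8 ± 1.80 FPKM). Cpt1a, which passes long-chain acyl groups into mitochondria and sets the pace of their oxidation, averaged 2.90 and 7.33 FPKM. Of 15 genes of fatty acid oxidation with a mean of at least 1 FPKM, Cpt1a included and likewise listed after the values were seen, 11 had every KO library above every WT library (31.3% of all genes did so) and Echs1 alone lay below (24.6% of all genes), with a median ratio of 1.21 against 1.02 over all genes. Without Cpt1a, which was selected for this pattern, the count was 10 of 14 and the median ratio 1.19. On the TPM scale 10 of the 15 lay above, as did 2902 of all 11400 genes on that scale.

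Idh1, the cytosolic isocitrate dehydrogenase that supplies NADPH, averaged 15.95 FPKM in the WT arm and 40.2 FPKM in the KO arm. Mrps21, a protein of the small mitochondrial ribosome subunit, averaged 19.6 and 54.3 FPKM, and its WT values of 15.5, 17.1 and 26.1 FPKM were uneven. Atp5k, subunit e of the mitochondrial ATP synthase, averaged 22.3 and 48.8 FPKM. Fabp3, Mrps21 and Atp5k each have a pseudogene at least 95.7% identical over 210 bases or more, and their transcripts are short (371 to 823 bases), so their values are less certain.

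A further 4 genes act in detoxification or selenium transport. Cmbl, a hydrolase that activates ester prodrugs, had 0.938, 1.16 and 1.48 FPKM in the WT arm and 5.89, 5.25 and 6.22 FPKM in the KO arm, a ratio of 4.85. It was also the thinnest measurement, with about 18 fragments in its lowest library against a median of 214 for the 55 genes. Selenop, the plasma carrier of selenium, had 2.63, 2.45 and 2.89 FPKM in the WT arm and 7.65, 7.43 and 8.0 FPKM in the KO arm. Mgst3, a microsomal glutathione transferase, was the most abundant of the 4, with 4.88, 4.01 and 4.14 FPKM in the WT arm and 10.8, 13.7 and 12.9 FPKM in the KO arm. Ephx1, the microsomal epoxide hydrolase, averaged 2.29 and 5.25 FPKM. Of the other microsomal transferases, Mgst2 had 10.8 ± 0.265 and 12.9 ± 0.359 FPKM (SD, n = 3 each).

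Small GTPase and kinase signalling accounts for 7 genes. Rin2, an exchange factor for endosomal Rab proteins, had 3.30, 3.53 and 3.02 FPKM in the WT arm and 10.4, 9.84 and 9.94 FPKM in the KO arm. Rasgrp3, an exchange factor that activates Ras and Rap in response to diacylglycerol, was the most abundant, at 24.1, 23.8 and 24.9 FPKM in the WT arm and 57.2, 59.2 and 57.0 FPKM in the KO arm. For both, the KO libraries differed among themselves by far less than they differed from the WT libraries. Camk1, a calcium and calmodulin-dependent kinase, averaged 6.39 and 14.8 FPKM. Deptor, an inhibitor within the mTOR complexes, averaged 4.36 and 9.88 FPKM, and Rab7b, a GTPase of late endosomes, averaged 10.03 and 20.5 FPKM.

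In the remaining pair 1 library stood far from the others of its arm. Arl2bp, a partner of the GTPase ARL2, averaged 7.37 and 16.6 FPKM, but its WT values were 4.87, 13.5 and 3.80 FPKM, and the ratio went from 2.25 to 3.83 without WT replicate 2. Mapk14, a stress-activated kinase, averaged 5.49 and 11.2 FPKM with KO values of 19.3, 7.96 and 6.44 FPKM, and its ratio was 1.31 without KO replicate 1.

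Of lysosomal transporters 2 were selected. Slc29a3, which exports nucleosides from lysosomes, had 6.55, 6.22 and 5.74 FPKM in the WT arm and 18.3, 17.9 and 17.3 FPKM in the KO arm. Mfsd12, which brings cysteine into lysosomes and melanosomes, had 19.2, 19.0 and 17.8 FPKM in the WT arm and 40.1, 40.1 and 38.8 FPKM in the KO arm. Slc29a1, the plasma membrane relative of Slc29a3, had 19.2 ± 0.734 and 21.1 ± 0.783 FPKM (SD, n = 3 each).

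Another 6 genes act in gene regulation or on RNA. Dhx9, an RNA helicase, was the most abundant, at 14.9, 14.0 and 15.1 FPKM in the WT arm and 34.5, 34.7 and 33.3 FPKM in the KO arm. Srrt, which links the RNA cap-binding complex to RNA processing, averaged 8.06 and 17.9 FPKM. Nab2, a corepressor of EGR transcription factors, averaged 5.09 and 10.6 FPKM. Its paralog Nab1 was close to level at 29.7 ± 0.766 and 28.4 ± 0.418 FPKM (SD, n = 3 each), and Egr3 had 0.881 ± 0.171 and 2.67 ± 0.225 FPKM (SD, n = 3 each). Ncoa4, which delivers ferritin to autophagy, averaged 4.43 and 9.74 FPKM, beside 10.6 and 20.7 FPKM for its pseudogene Gm6768, which is 99.9% identical over 1878 bases. Zfp62, a zinc finger protein, averaged 3.91 and 9.36 FPKM, with KO replicate 1 low at 5.90 against 11.8 and 10.4 FPKM in the other KO libraries.

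The last 10 genes fall outside these roles or are little characterised. Hspb7, a small heat shock protein best known from heart and muscle, had the highest level of all, with 35.7, 33.4 and 34.7 FPKM in the WT arm and 89.3, 86.4 and 91.0 FPKM in the KO arm. Tmem273, a membrane protein of unsettled function, had 9.99, 9.11 and 10.6 FPKM in the WT arm and 29.6, 28.3 and 28.9 FPKM in the KO arm. The membrane proteins Tmem51 and Tmem158 averaged 3.88 and 7.55 FPKM in the WT arm and 11.1 and 16.8 FPKM in the KO arm. Ptms (parathymosin) averaged 19.6 and 55.7 FPKM. Kctd12b averaged 2.34 and 6.02 FPKM, and Nptxr, the neuronal pentraxin receptor, 9.46 and 20.0 FPKM. Tbcc, a tubulin-folding cofactor, averaged 5.52 and 11.5 FPKM.

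Rnase4, a secreted ribonuclease, averaged 4.43 and 8.98 FPKM. It shares 219 exonic bases on the same strand with Ang, which had 1.69 and 2.61 FPKM. Pmaip1, the pro-apoptotic protein Noxa, averaged 8.09 and 17.7 FPKM, and KO replicate 3 stood near the WT level at 9.58 FPKM against 21.6 and 21.8 FPKM in the other KO libraries.

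**Figure D3:**
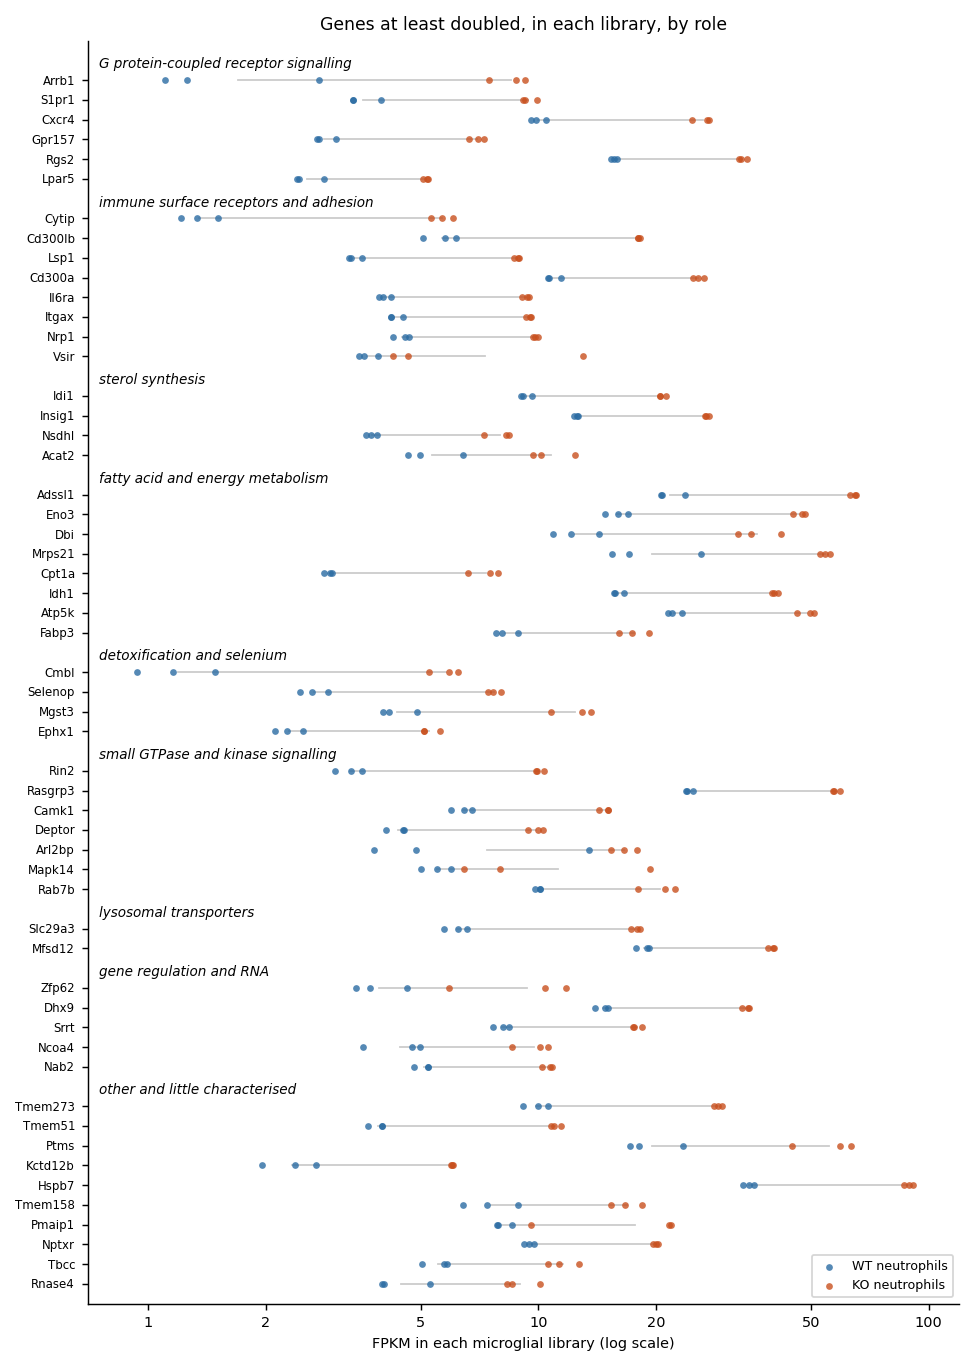
FPKM (log scale) of all but 1 of the 55 genes in each of the 6 libraries, grouped by role and ordered within a role by the KO to WT ratio. Blue points are the 3 libraries with WT neutrophils, orange points the 3 with KO neutrophils, and grey lines join the arm means. In most genes the 3 points of an arm lie close together, and in Vsir, Mapk14, Pmaip1, Arl2bp and Zfp62 a single point lies near the other arm or far from its own.

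Most of the ratios did not hang on a single library. The rule chose the genes on these same values and asked for no overlap, so such evenness partly follows from the selection. In 37 of the 55 genes every KO library stood at 2 times or more of every WT library, over all 9 pairs of libraries. The lowest of the 9 ratios was under 1.5 in 5 genes, namely Vsir, Mapk14, Pmaip1, Arl2bp and Zfp62. Relative to their means, the replicates of a gene had a median SD of 6.13% in the WT arm and 3.57% in the KO arm, against 3.84% and 3.65% over the 6668 genes with a KO mean of at least 5 FPKM. When each library was left out in turn, 45 genes met the rule every time. The other 10 were Arl2bp, Ncoa4, Pmaip1, Tbcc, Mapk14, Rab7b, Rnase4, Lpar5, Acat2 and Vsir.

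**Figure D4:**
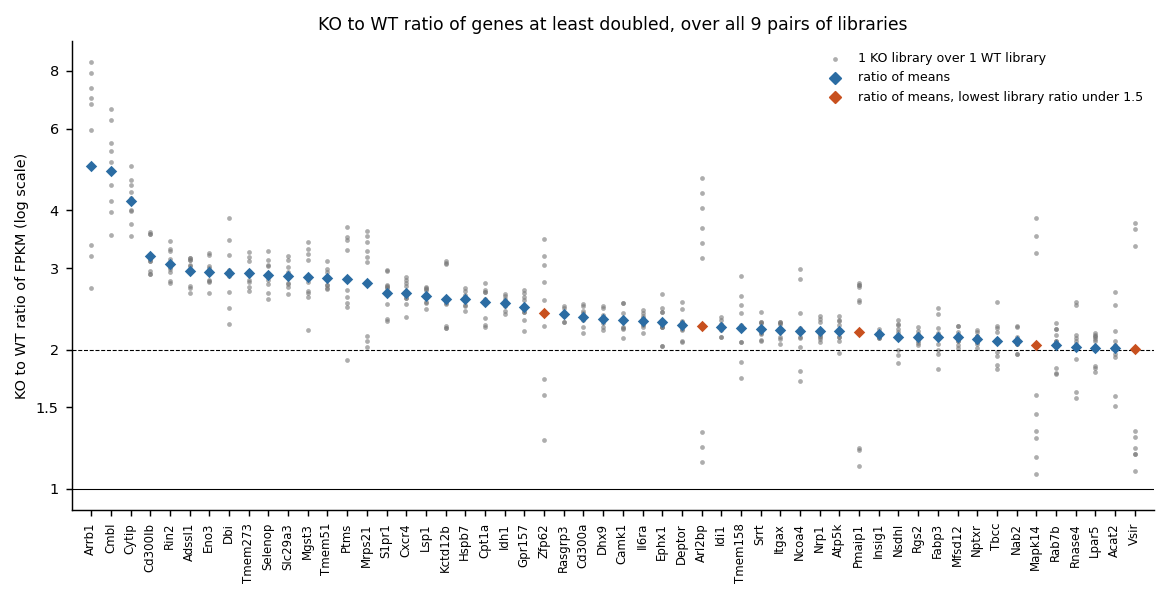
KO to WT ratio of FPKM (log scale) for all but 1 of the 55 genes, ordered by the ratio of arm means (diamonds). Grey points are the 9 ratios of 1 KO to 1 WT library, and orange diamonds mark the 5 genes with a lowest library ratio under 1.5. The grey points of Arl2bp, Mapk14, Pmaip1, Zfp62 and Vsir split into separate clusters, while those of genes such as Insig1 and Rasgrp3 stay close to the diamond.

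At the thresholds the genes changed little from inside to outside. On the ratio, Vsir (2.00), Acat2 (2.01) and Lpar5 (2.02) were just inside, and Fhod1 (1.997), Mrpl18 (1.99) and S100a11 (1.98) were just outside. On the level, Lpar5 (5.16 FPKM), Ephx1 (5.25 FPKM) and Cytip (5.67 FPKM) were just inside, and Cdkn2c (4.90 FPKM), Abca9 (4.81 FPKM) and Gng4 (4.66 FPKM) were just outside. Bola1, Exosc6 and Golph3l met both limits and were lost because a KO library lay below a WT library. A further 10 genes met the limits without being annotated as protein-coding, among them the immunoglobulin constant gene Ighm (2.43 and 10.01 FPKM) and Clec7a (9.03 and 21.1 FPKM), which the annotation lists as a polymorphic pseudogene.

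Pathway lists put together by function place the 55 genes in context. Over all 11395 genes tested with limma on log2(FPKM + 1), 2789 were higher with KO neutrophils (24.5%) and 2141 lower (18.8%) at an adjusted p under 0.05. The direction of this balance depends on scale, since rescaling to a common sum (TPM scale) gave 2183 higher and 2661 lower. In the list of G protein-coupled receptors and their regulators 12 of 28 tested genes were higher, of which Arrb1, Rgs2, Cxcr4, S1pr1 and Lpar5 are among the 55, and 9 were lower. Outside the 55, the smallest p belonged to genes that were lower, namely Hcar2, the receptor of hydroxybutyrate and niacin (log2 change -2.21, SE 0.0337, limma adjusted p = 1.76e-07), and the macrophage marker Adgre1 (log2 change -1.34, SE 0.0363, limma adjusted p = 1.74e-06). The median ratio of the list was 1.05, near the 1.02 over all genes. Those 5 were selected for being higher, and among the 23 genes outside the 55 limma called 7 higher and 9 lower, with a median log2 change of -0.018 that ran from -0.07 to 0.062 over the alternatives.

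For lipid uptake and storage, 15 of 25 tested genes were higher, Fabp3 and Cpt1a among them, and 7 were lower, with a median ratio of 1.23. Outside the 55, 13 of 23 were higher and the median ratio was 1.21. Of these, lipoprotein lipase (Lpl, log2 change 0.91, SE 0.0167, limma adjusted p = 3.85e-07) and lysosomal acid lipase (Lipa, log2 change 0.92, SE 0.0261, limma adjusted p = 2.06e-06) came close to a doubling. The changes of largest size outside the 55 were falls, in the scavenger receptor Msr1 (log2 change -1.73), the triglyceride-forming enzyme Dgat2 (log2 change -1.61, SE 0.0898, limma adjusted p = 3.4e-05) and the lipid droplet protein Hilpda (log2 change -1.15, SE 0.0363, limma adjusted p = 3.44e-06), which were picked after their values were seen. In the list of actin, adhesion and migration 14 of 34 were higher, with Lsp1 and Itgax, and 6 were lower, with Itga5 down (log2 change -1.02, SE 0.0293, limma adjusted p = 2.26e-06) and Gsn up (log2 change 0.76, SE 0.0273, limma adjusted p = 5.64e-06). Without its 2 selected genes 12 of 32 were higher. Of the list of extracellular matrix and secreted growth factors, which holds Nrp1, 7 of 19 were higher and 10 lower, with Lgals1 up (log2 change 0.68, SE 0.0237, limma adjusted p = 4.89e-06) and a median ratio of 0.850. Without Nrp1 the higher genes were 6 of 18.

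Some lists held few or none of the 55. In that of microglia identity 10 of 16 tested genes were higher and 2 lower. Outside the 55 the higher genes were 9 of 15, a count that still holds Trem2. The smallest p was that of Adgre1, which fell as given above, followed by that of Trem2 (log2 change 1.15). Trem2 met the rule by its difference between the arms and was left out only by name, so its p is not given. The other lower gene was the fractalkine receptor Cx3cr1 (log2 change -0.81, SE 0.1068, limma adjusted p = 0.00148), so these 2 markers went against the summed level of the list, which was higher in the KO arm. In the lysosome and phagosome list 13 of 29 were higher and 7 lower, with Lgmn (log2 change 0.55, SE 0.0153, limma adjusted p = 1.94e-06) and Laptm5 (log2 change 0.86, SE 0.0336, limma adjusted p = 7.4e-06) at the head and none of the 55. The osteoclast and cell fusion list had 13 of 24 higher and 7 lower, led by Atp6v0d2 and by Cd9 (log2 change 0.78, SE 0.02, limma adjusted p = 1.37e-06). Atp6v0d2 met the rule and was left out only by name, and it is counted in the 13. In the proliferation list 30 of 40 were higher and 2 lower, with Ccnd2 (log2 change 0.59, SE 0.0264, limma adjusted p = 1.25e-05) and Pcna (log2 change 0.64, SE 0.029, limma adjusted p = 1.4e-05) first. Cdkn2c alone of that list had a ratio of 2 or more (2.06), with a KO mean under 5 FPKM. The alternative activation list had 4 of 11 higher and 5 lower, with Clec7a up (log2 change 1.14, SE 0.0365, limma adjusted p = 3.71e-06) and Msr1 down (log2 change -1.73, SE 0.0676, limma adjusted p = 7.33e-06). All 3 tested neutrophil markers were lower, and Cnp and Vwf were higher.

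By structure the 55 genes were somewhat smaller than other genes of their level. Their median gene span was 15.5 kb with 6 exons, against 23.0 kb and 9 exons for the 6668 genes and 19.0 kb and 7 exons for the 213 of the mirrored rule. Median transcript length (2769, 2884 and 2698 bases) and GC content (50.9%, 49.8% and 51.1%) were alike in these groups. Chromosome 1 carried 8 of the 55 (14.5%, against 5.50% of the 6668). Besides the CD300 pair, the closest were Ptms and Lpar5 on chromosome 6, 148 kb apart with 6 protein-coding genes between them.

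RefSeq promoter windows, taken as the 250 bases before the start, were found for 45 of the 55 genes, 157 of the 213 and 5349 of the 6668, and 16529 were counted over all genes. Each motif was searched on both strands, and the E2F site and a GC box overlap in Tbcc. A GC box (GGGCGG) was in 51.1% of the 55 genes' windows, 50.3% of the mirrored group's, 63.9% of the windows at that level and 44.8% of all windows. An AP-1 site (TGANTCA) was in 4.44%, 13.4%, 3.74% and 6.12%, in the same order, and an antioxidant response element (TGACNNNGC) in 4.44%, 12.7%, 12.3% and 10.7%. The E-box CACGTG was in 4.44%, 6.37%, 9.57% and 6.82%, the TATA box (TATAAA) in 8.89%, 12.7%, 5.72% and 12.0%, and the CCAAT box in 18 of the 45 windows of the 55 genes and in 28.7%, 36.7% and 35.8% of the others.

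The cAMP response element (TGACGTCA) and the E2F site (TTCCCGCC) were each in 1 window, that of Tbcc, as was the sterol regulatory element. Their shares of the 5349 windows were 3.01%, 4.06% and 0.879%. The PU.1 core (GAGGAAGT) and the NF-kB site (GGGACTTTC) were in none, against 2.67% and 0.318% of the 5349. With 45 windows 1 gene is worth 2.22%, so shares that differ by a few percent rest on 1 or 2 genes. The ratio of observed to expected CpG was 0.608 at the median for the 55 genes, 0.487 for the mirrored group and 0.788 for the 5349.

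**Figure D5:**
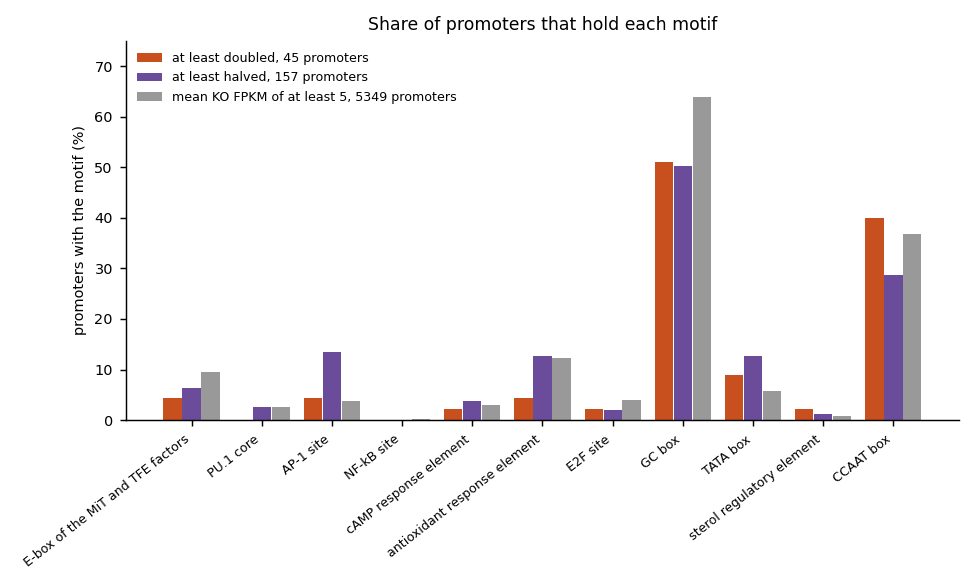
Share of RefSeq promoter windows (the 250 bases before the start, in %) that hold each of 11 motifs on either strand. Orange bars are the 45 windows of the 55 genes, purple bars the 157 of the mirrored group, and grey bars the 5349 of protein-coding genes with a KO mean of at least 5 FPKM. GC boxes and CCAAT boxes are common in all groups, and the AP-1 site is most frequent in the mirrored group at 13.4%.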

How the data were processed

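The authors deposited FPKM values in 1 table, each library in its own column. Per the labels' processing notes, fastp 0.17.1, HISAT2 2.1.0, DESeq2 1.18.1 and R 3.4.3 were used. The build and annotation are not given in the sources used here, and the labels and the methods name different library kits and sequencers. The table holds no counts, and a count test was therefore not made. Symbols, biotypes and positions came from GENCODE M21 (GRCm38), which held 55154 of the 55335 identifiers and may differ from the annotation behind the table.

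The rule was applied to the deposited FPKM values. FPKM depends on the transcript length assumed and on the sum over all genes, between 314084.9 and 315632.4 for WT and between 323588.4 and 326868.0 for KO libraries. Depth is not given with FPKM. It was estimated from the most common step between low values, and 29.6% to 31.4% of low values were whole fragments within 0.05, so fragments per gene are approximate and cover counting error only. Genes that averaged 1 FPKM or more were tested with limma 3.58.1 in R 4.3.3 (lmFit, eBayes with trend, log2(FPKM + 1), KO minus WT, no covariate), with Benjamini-Hochberg adjustment over 11395 genes. Fold changes on this scale understate the change of low genes, and p-values measure the spread between these libraries, which may be technical. The code was tested on simulated data. Python 3.11.15 and pandas 2.3.3 were used otherwise.

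Of the 55 genes 1, counted in its role group and in every total, is not reported by name here, and the others are named. All 6 values are given for the 12 highest ratios and for the most abundant gene of each role. Single values of genes with 1 library far from its arm were chosen after they were seen. Up to 2 other genes per list have the smallest p. The 55 genes and all lists were chosen with earlier results of these data known, and role groups, relatives, and the sterol and CCAAT motifs were added after the values were seen. Alternatives were other scales, pseudocounts, filters and thresholds, no variance trend, a replicate block and leaving out each library. Libraries with the same replicate number shared no clear deviation from the arm means across arms, with correlations of -0.075, -0.052 and -0.005. With 3 libraries per arm this does not tell if they were prepared together.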

Additional observations from a re-analysis of the deposited data

How the results depend on the processing

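Ratios of the 55 genes ran from 1.93 to 4.82 on the TPM scale. The count of 55 genes was 134 with a KO mean of at least 1 FPKM and 35 with at least 10 FPKM, by construction of the threshold. It was 49 on the TPM scale, 51 after median centring, 41 with 1 FPKM added to both means, and 58 to 68 without 1 library. The 6 genes lost on the TPM scale were Acat2, Lpar5, Mapk14, Rab7b, Rnase4 and Vsir. The median ratio of 2.32 moved to 2.24 on the TPM scale and 2.27 after median centring, and ran from 2.31 to 2.36 without 1 library. The ratio moved by over 1.5 times for Arl2bp without WT replicate 2 (3.83), for Mapk14 without KO replicate 1 (1.31) and for Vsir without KO replicate 3 (1.22). Calls across the table ran from 2269 to 2417 higher and from 1788 to 1860 lower without 1 library. For alternative activation 7 genes were higher with no filter on low values, and 2 higher and 1 lower with a mean of at least 5 FPKM. That filter also left 6 lower genes in the matrix list and 1 in microglia identity, where fewer genes were tested. Of 234 list counts under alternatives, 229 stayed within 1.5 times. A replicate block gave 2373 higher and 1839 lower genes, and 63 genes by the median ratio of same-numbered pairs, and it changed no list count by over 1.5 times. Low counts limit Cmbl, Lpar5, Ephx1, Arrb1 and Mgst3 most, which had under 70 fragments in their lowest library.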

Other observations

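Outside the protein-coding genes, the same limits were met, among others, by the long intergenic RNAs Gm42418 (10.4 and 21.8 FPKM), Gm13391 (4.22 and 8.81 FPKM) and Gm26532 (3.64 and 7.72 FPKM), by the antisense RNA Hectd2os (2.67 and 5.60 FPKM) and by the pseudogenes Gm7665 (11.97 and 24.4 FPKM) and BC021767 (3.08 and 6.82 FPKM). Gm26532 was uneven, at 4.17, 6.36 and 0.379 FPKM in the WT libraries.

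The 3 genes lost to overlap had libraries of the same arm far apart. Exosc6, a subunit of the RNA exosome, was listed at 0.00525, 17.3 and 0.0836 FPKM in the WT libraries and at 18.7, 0.263 and 22.6 FPKM in the KO libraries. Bola1 had 1.02, 1.54 and 2.04 FPKM against 12.6, 13.1 and 1.68 FPKM, and Golph3l had 6.47, 8.12 and 5.43 FPKM against 22.8, 21.4 and 6.82 FPKM. In these genes KO replicate 3 was the low one for Bola1 and Golph3l, as it was for Pmaip1, while in Exosc6 it was KO replicate 2.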
